A study of Mus musculus with 12 samples.

Results

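The Ms4a genes (membrane-spanning 4-domains, subfamily A) encode mostly small proteins that cross the cell membrane in 4 places. The 7 genes described here were taken by name: Ms4a7, Ms4a4a, Ms4a14, Ms4a6b, Ms4a6c, Ms4a6d and Ms4a4c. They are 7 of the 25904 genes in the deposited table, and all 7 were among the 12519 genes with enough reads to be tested, meaning that 3 or more of the 12 libraries reached a normalized count of 10. The genes lie together on mouse chromosome 19 (GRCm38), between positions 11301249 and 11604849, a stretch of 303.6 kb.

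Expression was measured by RNA-seq in 4 groups of 3 libraries of C57BL/6 mouse cells. WT microglia came from Tgfbr2fl/fl mice with no Cre, and KO microglia from Cx3cr1CreER/+Tgfbr2fl/fl mice, in which tamoxifen activates a Cre recombinase made from 1 Cx3cr1 allele. Tgfbr2 encodes a receptor for the cytokine TGF-beta. WT and KO macrophages were the progeny of bone marrow with the same Tgfbr2fl/fl or Cx3cr1CreER/+Tgfbr2fl/fl genotypes, transplanted into irradiated Cx3cr1CreER/+R26DTA/+ recipients, whose own microglia make diphtheria toxin after tamoxifen. All groups therefore carried floxed Tgfbr2, and the mice of every group received tamoxifen, as 3 daily injections of 5 mg. In the transplanted mice the injections came after 6 weeks. Cells were sorted 18 to 22 days after tamoxifen as live, Ly6C-negative, CD11b-positive cells, with 1 to 5 mice pooled per library. The KO groups also have CreER in 1 Cx3cr1 allele, which the WT donors lack, and they were sorted with high F4/80 whereas the WT groups were sorted with low F4/80. Genotype, CreER and gate cannot be told apart. In comparisons of macrophages with microglia, origin cannot be told apart from irradiation, transplantation and the R26DTA recipients.

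Many macrophages express several Ms4a genes at once. The proteins sit in the plasma membrane or in endosomes, where several are known to associate with immune receptors and to change their signalling. MS4A1 is the B cell antigen CD20, and MS4A2 is the beta chain of the high-affinity IgE receptor. MS4A4A associates with the fungal-sugar receptor Dectin-1 in macrophages. In the brain, Ms4a7 is widely used to mark macrophages of the brain borders and those that come from bone marrow, as opposed to microglia. Human variants near the MS4A genes are associated with Alzheimer's disease and with the amount of soluble TREM2.

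Depth was 2615404 to 6364994 reads in genes per library, which makes a single read worth between 0.718 and 1.6 normalized counts. KO macrophage library 1 was the shallowest and stood apart from its group, with a mean correlation of 0.936 to the other 2 KO macrophage libraries against 0.958 to 0.981 for the remaining 11 libraries. Tgfbr2 itself fell from 2898 ± 356 (SD, n = 3) to 2193 ± 100.1 normalized counts in microglia (log2 fold change -0.40, limma adjusted p = 0.00515) and from 3303 ± 267 to 2235 ± 209 in macrophages (-0.56, adjusted p = 0.000608). A large share of its reads thus stayed in the KO libraries, and the values are summed over the whole gene, so they do not check the deleted part by itself. Adgre1, which encodes the F4/80 used in the gate, averaged 1409 and 3862 in WT and KO microglia, and in the macrophages 2598 and 3792. Cx3cr1, the locus of CreER, averaged 19192, 481, 7919 and 1443 in WT microglia, KO microglia, WT macrophages and KO macrophages.

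The coding sequences show which members are close relatives. Ms4a6b, Ms4a6c and Ms4a6d form 1 branch: Ms4a6b shares 85.4% of 642 aligned coding bases with Ms4a6c and 81.2% of 730 with Ms4a6d, while Ms4a7 and Ms4a4a share 61.7% of 642. The first 90 coding bases of Ms4a6b, Ms4a6c and Ms4a6d are printed here because the 3 genes differ so much in their response, with capitals marking the bases that differ from Ms4a6b:
Ms4a6b: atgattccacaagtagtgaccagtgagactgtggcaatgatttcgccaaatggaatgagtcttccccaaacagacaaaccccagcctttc
Ms4a6c: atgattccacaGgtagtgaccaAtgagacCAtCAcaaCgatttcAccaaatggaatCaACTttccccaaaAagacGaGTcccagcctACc
Ms4a6d: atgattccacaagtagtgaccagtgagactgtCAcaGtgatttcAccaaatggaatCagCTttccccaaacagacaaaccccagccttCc
Ms4a6c differs from Ms4a6b at 18 of these bases and Ms4a6d at 8. Ms4a4c belongs to another branch and shares 91.7% of 678 aligned bases with Ms4a4b and 86.1% of 674 with Ms4a4d. The coding sequence of Ms4a14 has 3696 bases, against 651 to 801 for the other 6 members.

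The 250 bases before the RefSeq start are printed for the 3 genes that went from almost no reads to high levels, and for Ms4a6c. They read 5′ to 3′ on the strand of the gene (GRCm38.p6). Capitals mark the letters GGAAGT (the core bound by the macrophage factor PU.1), TGANTCA (AP-1) and TGCTGA (a MAF half-site), on either strand:
Ms4a7, chr19:11336147-11336396, minus strand: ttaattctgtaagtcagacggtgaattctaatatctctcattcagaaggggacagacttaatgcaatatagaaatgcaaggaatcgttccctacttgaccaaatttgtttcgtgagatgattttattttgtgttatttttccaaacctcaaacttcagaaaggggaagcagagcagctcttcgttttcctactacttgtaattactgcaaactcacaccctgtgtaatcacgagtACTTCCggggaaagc
Ms4a14, chr19:11314455-11314704, minus strand: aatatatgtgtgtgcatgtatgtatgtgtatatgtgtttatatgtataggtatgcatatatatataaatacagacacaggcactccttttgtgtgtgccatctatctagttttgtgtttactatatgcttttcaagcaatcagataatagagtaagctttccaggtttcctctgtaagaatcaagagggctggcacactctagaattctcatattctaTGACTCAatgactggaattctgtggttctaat
Ms4a4a, chr19:11375238-11375487, plus strand: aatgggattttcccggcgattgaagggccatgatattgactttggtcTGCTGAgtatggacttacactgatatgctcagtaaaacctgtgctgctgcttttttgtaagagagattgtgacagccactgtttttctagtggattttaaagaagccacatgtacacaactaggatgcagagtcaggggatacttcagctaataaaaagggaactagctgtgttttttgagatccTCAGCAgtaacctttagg
Ms4a6c, chr19:11469118-11469367, plus strand: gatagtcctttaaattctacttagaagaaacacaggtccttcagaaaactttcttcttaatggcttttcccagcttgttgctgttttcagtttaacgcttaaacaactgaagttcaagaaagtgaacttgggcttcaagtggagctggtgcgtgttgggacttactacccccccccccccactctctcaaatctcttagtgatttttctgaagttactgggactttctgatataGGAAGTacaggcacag
RefSeq gave 7 such windows for 6 of the members. GGAAGT occurs in 4 of the 7 windows and in 19.7% of 32851 mouse promoter windows of the same length, TGANTCA in 2 and in 6.75%, and TGCTGA in 1 and in 16.1%. The letters GTCTG, a SMAD box, occur in 3 windows and in 42.2% of all, and an interferon response element in none of the 7 and in 2.98% of all. In the printed windows of Ms4a7, Ms4a14 and Ms4a4a the SMAD box is the 1 motif in common, but the other RefSeq window of Ms4a7, not printed, holds no SMAD box and 1 match of TGANTCA, so what the genes share depends on the window. In the printed window of Ms4a7 a GGAAGT match begins 15 bases before the start and in Ms4a6c 16 bases before it. Ms4a6c and Ms4a6b are alike here as well. They share 85.1% of 175 aligned bases, including an identical run of 48 bases, which in Ms4a6c begins 49 bases before the start and holds the GGAAGT match. These matches are descriptions of letters and show no binding.

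Ms4a7 was almost absent from WT microglia and was among the strongly expressed genes of the other 3 groups. Its WT microglia libraries held 7.05, 1.29 and 6.21 normalized counts, from 8, 1 and 6 reads. KO microglia held 3038, 2743 and 2651, WT macrophages 2005, 1853 and 2044, and KO macrophages 2580.2, 2665 and 2508. No KO microglia library came near a WT microglia library. The KO and WT macrophage libraries did not overlap either, at a ratio of means of 1.31. The pooled ratio of KO to WT microglia was 537, with a 95% counting interval of 325 to 959.9 that covers counting error only. On the log2(normalized count + 1) scale Ms4a7 rose by 9.10 ± 0.31 (SE, limma adjusted p = 3.26e-12). In macrophages the log2 fold change was 0.39 ± 0.31 (adjusted p = 0.364). That SE is shared with the WT microglia libraries and their few reads: fitted on the 2 macrophage groups alone, the difference was the same 0.39 and the adjusted p was 0.00796.

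Ms4a14, whose long coding sequence sets it apart, followed Ms4a7 closely. WT microglia held 3.53, 1.29 and 2.07 normalized counts, from 4, 1 and 2 reads. KO microglia held 2204, 1726 and 1600, WT macrophages 1393, 1199 and 1305, and KO macrophages 1519, 1537 and 1589. All 9 libraries outside WT microglia were therefore at 1199 or more, and the KO microglia were the highest group. In KO microglia the log2 rise of Ms4a14 was 9.17 ± 0.18 (limma adjusted p = 1.04e-14), and the pooled ratio was 751 with a counting interval of 364 to 1868. The change in macrophages, 0.26 ± 0.18, did not pass (adjusted p = 0.314). Per kilobase of merged exons, the ratio of Ms4a14 to Ms4a7 was between 0.632 and 0.795 in each of the 9 expressing libraries.

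Ms4a4a, the mouse gene for the Dectin-1 partner, had 0 reads in all 3 WT microglia libraries. KO microglia held 512, 537 and 697 normalized counts, WT macrophages 324, 328 and 267, and KO macrophages 509, 464 and 552. Against a floor of 3 reads over the WT group, KO microglia had at least 566-fold more Ms4a4a, and WT macrophages at least 291-fold more. The fitted log2 fold change of 9.17 ± 0.15 (limma adjusted p = 1.5e-15) depends on the pseudocount and is no bound. Ms4a4a also rose in KO macrophages, by 0.73 ± 0.15 (adjusted p = 0.00179), with no overlap between WT and KO libraries, and by 0.73 (adjusted p = 0.00421) without KO macrophage library 1.

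Ms4a6b was readily detected in WT microglia, unlike the 3 genes above. Its 3 WT microglia libraries held 254, 281 and 209 normalized counts, and the KO microglia libraries 1090.1, 1056 and 999.96. WT macrophages held 1023, 1233 and 1117, and KO macrophages 1191, 1085 and 1106. The 9 libraries outside WT microglia overlapped among groups. Ms4a6b rose by 2.09 ± 0.10 in KO microglia (limma adjusted p = 2.35e-10), and its log2 fold change in macrophages was 0.01 ± 0.10 (adjusted p = 0.971).

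Ms4a6c separated KO microglia from macrophages of either genotype. WT microglia held 63.5, 64.4 and 58.0 normalized counts, KO microglia 482, 408 and 516, WT macrophages 847, 996 and 872, and KO macrophages 842, 798 and 849. The KO microglia lay above all WT microglia and below all 6 macrophage libraries. The rise in KO microglia was 2.89 ± 0.10 (limma adjusted p = 3.39e-12). KO macrophages were still higher than KO microglia by 0.83 (adjusted p = 4.13e-05), and the KO and WT macrophages differed by -0.12 ± 0.10 (adjusted p = 0.378).

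Ms4a6d, known to pair with the complement receptor Vsig4 in macrophages, was the member that differed least from WT microglia in the other groups. WT microglia held 201, 184 and 172 normalized counts and KO microglia 229, 195 and 216, so the 2 groups overlapped. WT macrophages held 275, 311 and 249, and KO macrophages 520.2, 332 and 382. KO macrophages were above all other libraries, with replicate 1 the highest. The change in microglia was 0.20 ± 0.14 (limma adjusted p = 0.301) and in macrophages Ms4a6d rose by 0.54 ± 0.14 (adjusted p = 0.0104). Without KO macrophage library 1, which stood apart, the macrophage change was 0.36 (adjusted p = 0.0339), and without WT macrophage library 3 it was 0.46 (adjusted p = 0.0501).

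Ms4a4c was the scarcest member outside WT microglia. WT microglia held 7.93, 3.87 and 7.25 normalized counts, from 9, 3 and 7 reads, and KO microglia 59.9, 30.5 and 45.8. WT macrophages held 89.2, 76.3 and 105, and KO macrophages 118, 67.2 and 66.8. The ranges of the WT and KO macrophages overlapped, and KO microglia lay between WT microglia and both. Ms4a4c rose by 2.66 ± 0.31 in KO microglia (limma adjusted p = 4.9e-06), and its macrophage value was -0.14 ± 0.31 (adjusted p = 0.776). With a pseudocount of 8 the rise in KO microglia was 1.87.

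**Figure D1:**
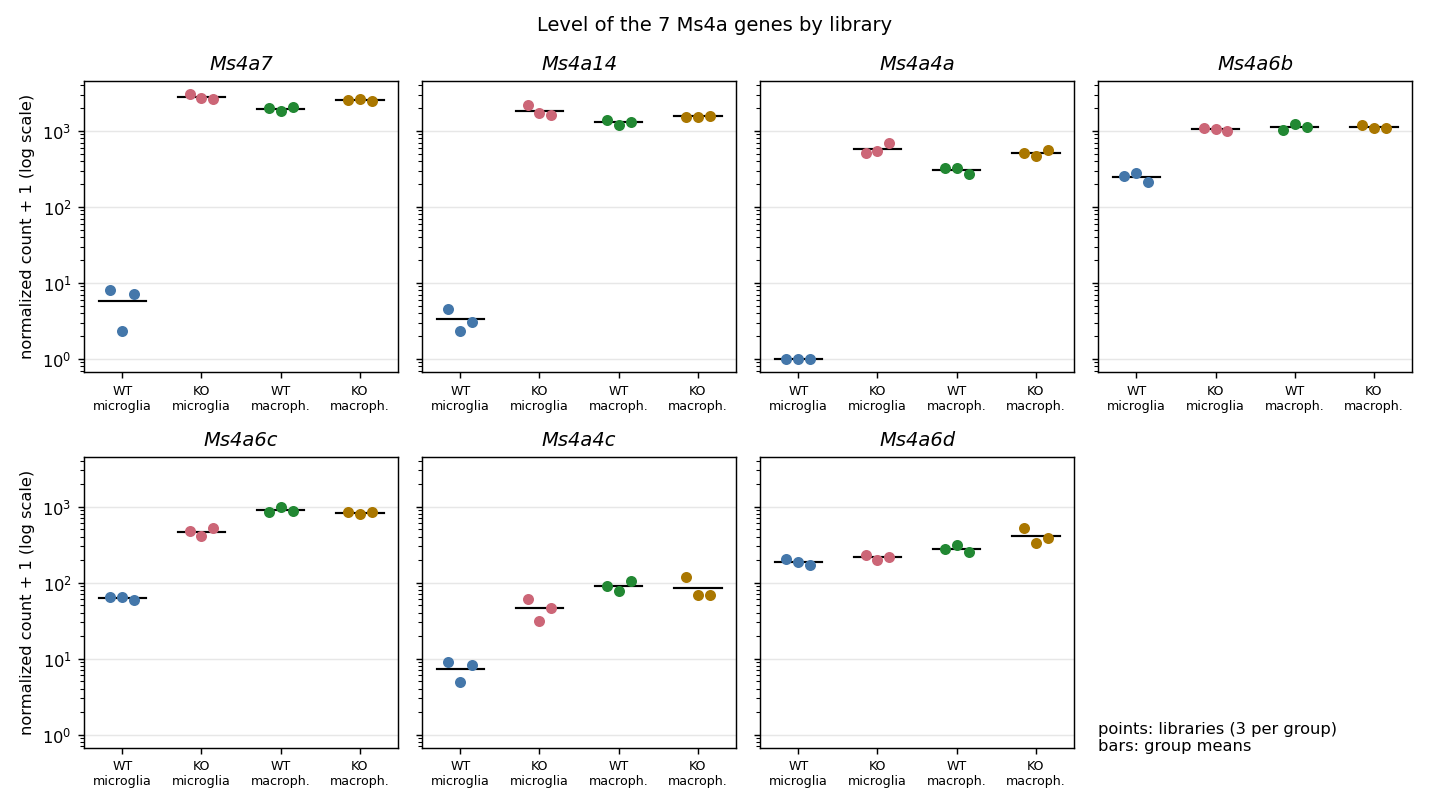
Normalized count + 1 of each of the 7 genes on a log axis, with 1 point per library and a bar at the mean of 3 libraries. Ms4a7, Ms4a14 and Ms4a4a are near the bottom in WT microglia alone, from 0 to 7.05 normalized counts, while Ms4a6d lies between 172 and 520.2 in all 12 libraries.

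In KO against WT microglia, 6 of the 7 members rose and none fell, and Ms4a6d did not pass. Over all 12519 tested genes 21.9% rose and 20.6% fell. The members' median log2 fold change was 2.89, that of Ms4a6c, and so is the same with Ms4a4a at its lower bound, against a median of -0.01 over all tested genes. By size of rise at the pseudocount of 1, Ms4a4a, Ms4a14 and Ms4a7 ranked 5, 6 and 7 of 12519, Ms4a6c 438, Ms4a4c 518, Ms4a6b 781 and Ms4a6d 4457. The order of the first 3 rests on 0 to 8 reads per WT microglia library and is not stable. With a pseudocount of 8 the log2 rises were 7.81 for Ms4a7, 7.48 for Ms4a14 and 6.19 for Ms4a4a (ranks 1, 4 and 24), and with scaling by library total they were 8.28, 8.08 and 7.01 (ranks 2, 4 and 14).

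In KO against WT macrophages, 2 of the 7 rose, Ms4a4a and Ms4a6d, and none fell, where 16.0% of all tested genes rose and 15.4% fell. The median was 0.26. For 6 members the KO effect was smaller in macrophages than in microglia by the test of the difference itself. These differences ran from -8.92 for Ms4a14 to -2.08 for Ms4a6b on the log2 scale (from -7.41 for Ms4a7 to -1.99 for Ms4a4c with a pseudocount of 8), and that of Ms4a6d, 0.34, did not pass (limma adjusted p = 0.243). Such differences were higher in 13% and lower in 12.9% of all tested genes.

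All 7 members were higher in WT macrophages than in WT microglia, and none was lower, where 19.2% of tested genes were higher and 20.2% lower. The log2 differences were 8.68 for Ms4a14, 8.59 for Ms4a7, 8.26 for Ms4a4a, 3.85 for Ms4a6c, 3.67 for Ms4a4c, 2.18 for Ms4a6b and 0.58 for Ms4a6d (limma adjusted p = 0.00519 for the last, the largest of the 7). With a pseudocount of 8 the first 3 were 6.99, 7.29 and 5.29, and that of Ms4a4c was 2.77. This comparison and that of KO with WT microglia share the WT microglia libraries. Between KO macrophages and KO microglia 2 members were higher in the macrophages, Ms4a6c and Ms4a6d (0.83 and 0.92, or 0.82 and 0.74 without KO macrophage library 1), and none was lower. The shares over all genes were 5.45% and 5.05%.

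KO microglia were also set directly against WT macrophages, 2 groups that differ in origin, transplantation and irradiation, genotype, CreER and gate. Ms4a4a was higher in KO microglia, by 0.91 (limma adjusted p = 0.000212), and Ms4a6c and Ms4a4c were lower, by -0.95 (adjusted p = 2.56e-06) and -1.01 (adjusted p = 0.0208). Of all tested genes 19.0% were higher and 16.1% lower. Ms4a14, at 0.49 (adjusted p = 0.0502), Ms4a6d, at -0.38 (adjusted p = 0.0549), and Ms4a7, at 0.51 (adjusted p = 0.226), did not pass. For each of the 3 every KO microglia library lay on 1 side of every WT macrophage library. The share of all tested genes that separate in this way was not counted. With only these 2 groups in the fit, each of the 3 passed, with limma adjusted p of 0.00158, 0.0103 and 5.99e-05. In that fit 43.3% of all tested genes were called, against 35.1% with all 12 libraries. Without WT microglia replicate 2, or without KO macrophage replicate 1, 5 members were called, and 34.8% and 42.6% of all tested genes. Neither library is in this comparison, but both share its estimate of the spread. The call of Ms4a4c was lost without KO microglia replicate 2 (adjusted p = 0.105), WT macrophage replicate 1 (0.057) or WT macrophage replicate 3 (0.0809).

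**Figure D2:**
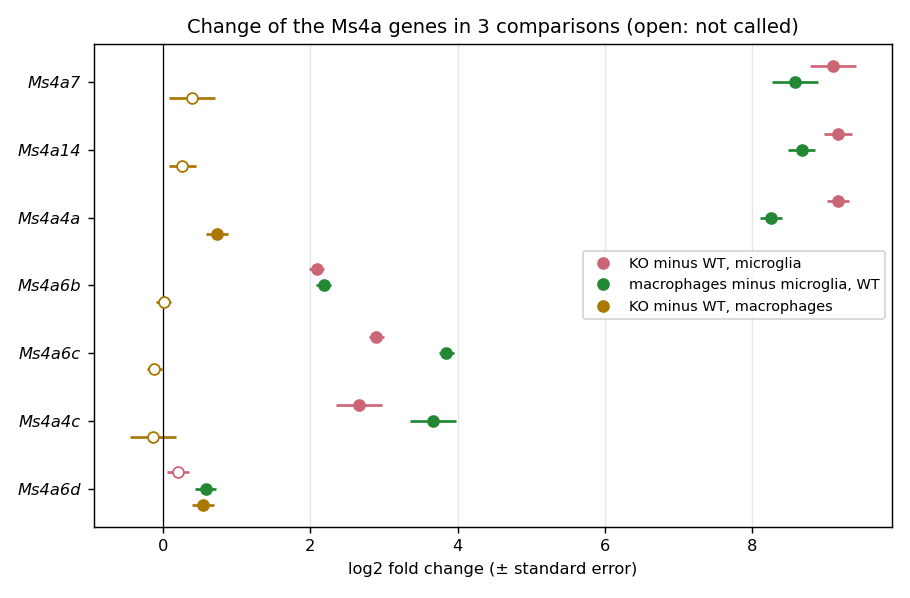
Log2 fold change with its SE for each gene in KO against WT microglia, KO against WT macrophages, and WT macrophages against WT microglia; open points did not pass an adjusted p of 0.05. The microglia effect runs from 0.20 for Ms4a6d to 9.17 for Ms4a4a, whose value depends on the pseudocount (6.19 at 8, below Ms4a7 and Ms4a14), and all macrophage KO effects lie between -0.14 and 0.73.

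The order of the 4 groups followed 2 patterns. For Ms4a7, Ms4a4a and Ms4a14 the order of means from low to high was WT microglia, WT macrophages, KO macrophages and KO microglia. Of the neighbours in that order above WT microglia, only the step from WT to KO macrophages of Ms4a4a passed. For Ms4a6b, Ms4a6c and Ms4a4c, WT microglia were followed by KO microglia and then by both macrophage groups, whose means were within a ratio of 1.09 of each other. In this second set the step from KO microglia to the nearest macrophage group passed for Ms4a6c alone (Ms4a4c, adjusted p = 0.0998, and Ms4a6b, adjusted p = 0.503, limma). Ms4a6d had the same first 2 groups as the second set and then rose from WT to KO macrophages.

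Counts were divided by the length of the merged exons to compare the genes with each other. In WT microglia the 7 genes summed to 198 ± 15.9 normalized counts per kilobase (SD, n = 3), of which Ms4a6d made up 54.1%, Ms4a6b 27.9% and Ms4a6c 15.3%. KO microglia summed to 2392 ± 127, and there Ms4a4a made up 29.1%, Ms4a7 26.4% and Ms4a14 18.9%, while Ms4a6d made up 5.13%. WT macrophages summed to 2032 ± 55.0, with Ms4a7 at 21.8%, Ms4a6c at 21.7% and Ms4a4a at 18%. KO macrophages summed to 2511 ± 108, with Ms4a4a at 24.2%, Ms4a7 at 23.2% and Ms4a6c at 16.1%. Ms4a7 led KO microglia and KO macrophages in place of Ms4a4a when the longest transcript was used as the length. The ratio of Ms4a6c to Ms4a6b per kilobase was 0.502 to 0.607 for WT microglia and 0.845 to 1.13 for KO microglia, and for the macrophages it was 1.71 to 1.81 (WT) and 1.55 to 1.68 (KO). The 4 ranges did not overlap, so these 2 close relatives changed in unequal measure.

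**Figure D3:**
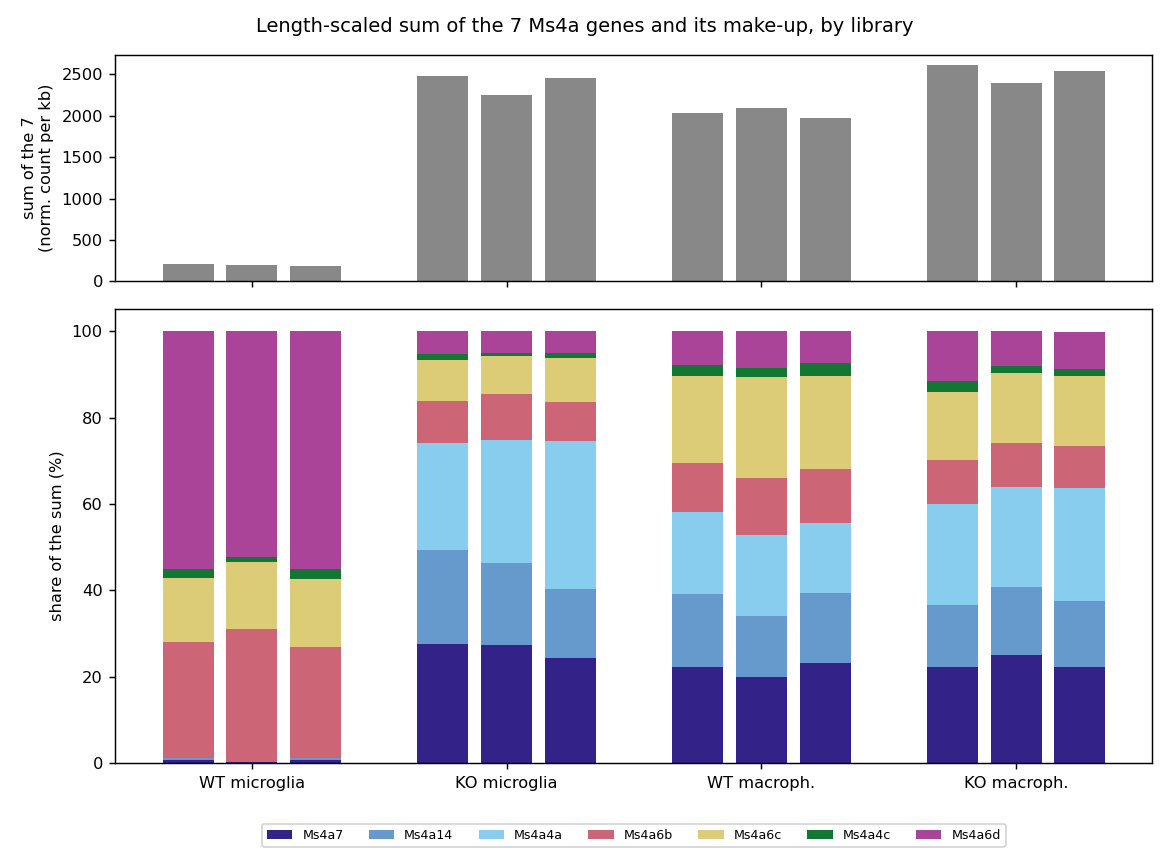
Sum of the 7 genes in normalized counts per kilobase of merged exons (upper bars) and the share of each gene in it (lower bars), for the 12 libraries. Ms4a6d makes up 52.3% to 55.1% of the sum in WT microglia and 4.99% to 11.5% elsewhere.

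At a pseudocount of 1, none of the 6 nearest tested neighbours of the members rose by more than 3.18 on the log2 scale in KO microglia. Ms4a7, Ms4a14 and Ms4a4a rose by 9.10 to 9.17. The value of 3.18 (limma adjusted p = 1.14e-05) was that of BE692007, a transcript antisense to Ms4a6c, and is no bound. BE692007 held 0 reads in WT microglia, against 7.86, 5.90 and 11.3 normalized counts with the KO. The WT macrophages held 24.6, 41.9 and 35.4, and the log2 value of BE692007 in KO against WT macrophages was -1.44 (adjusted p = 0.0139). Gm8369, a coding gene between Ms4a6c and Ms4a6b, averaged 5.14 ± 3.63 in WT microglia and 38.2 ± 14.9 in KO microglia and rose by 2.87 ± 0.45 (limma adjusted p = 8.59e-05). Farther out, AW112010, a long noncoding RNA 245 kb away, rose by 0.95 (adjusted p = 0.04) and Stx3, a gene of membrane fusion 170 kb away, by 1.02 (adjusted p = 0.0132). Mrpl16, which encodes a mitochondrial ribosomal protein, fell by 0.78 (adjusted p = 0.0195), and Ccdc86 had -0.36 (adjusted p = 0.156). Of 36 annotated neighbours, counted to 250 kb beyond the outermost listed Ms4a genes on the chromosome, 10 were tested. In KO microglia 4 rose and 2 fell, and in KO macrophages none rose and 2 fell. Over all tested genes 21.9% rose and 20.6% fell in microglia, and 16.0% rose and 15.4% fell in macrophages.

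**Figure D4:**
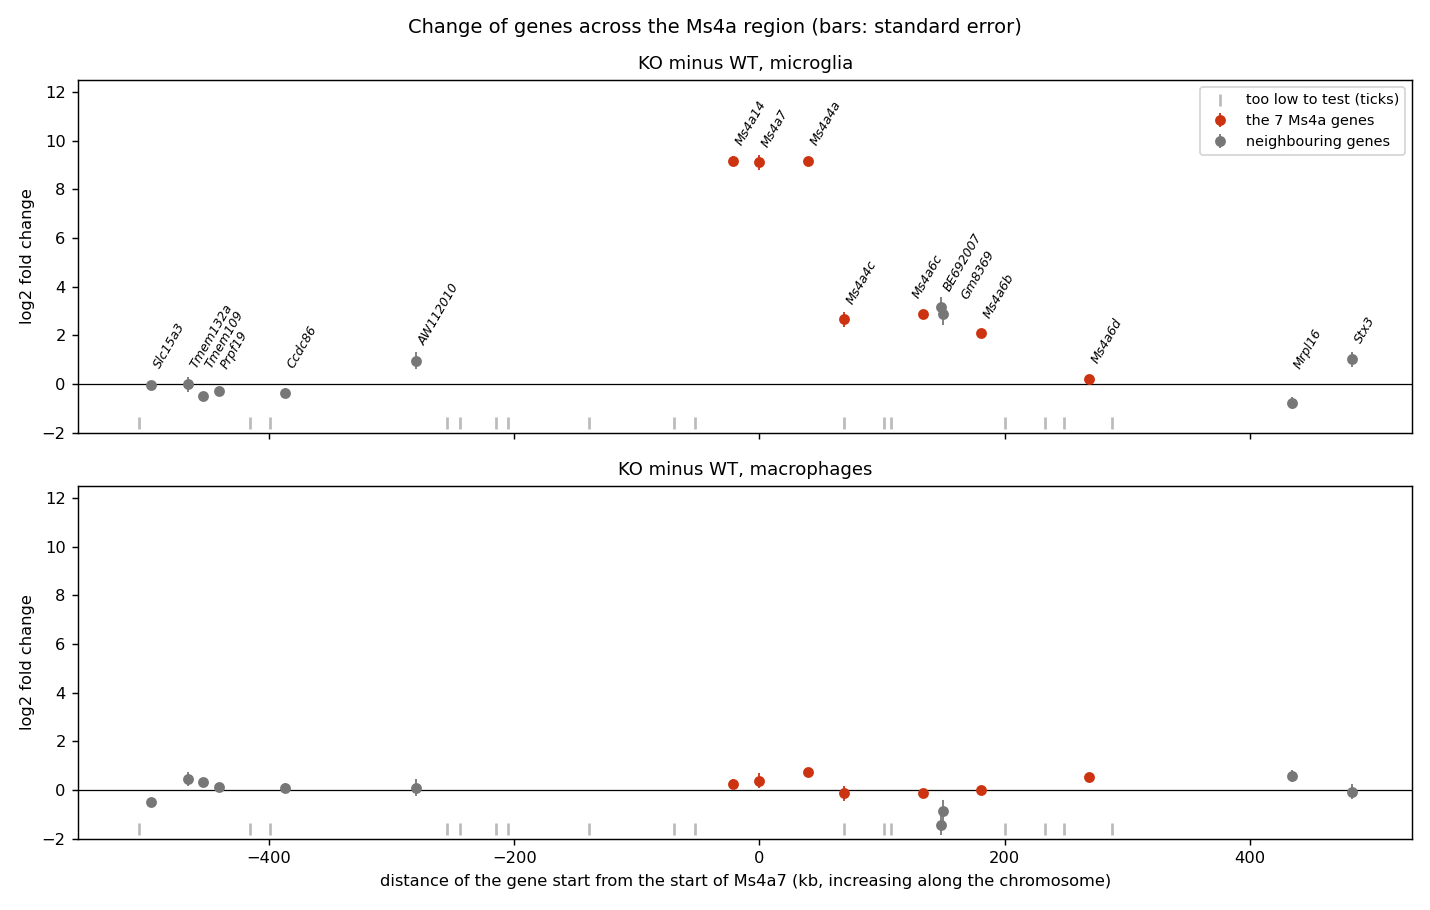
Log2 fold change with its SE for the tested genes of the region, by distance in kilobases of the gene start from that of Ms4a7, in KO against WT microglia (upper) and macrophages (lower); ticks mark genes too low to test. The 3 values above 9 in microglia, at a pseudocount of 1, belong to neighbouring genes, Ms4a14, Ms4a7 and Ms4a4a, and the smallest value of a member, 0.20, is that of Ms4a6d at the far end of the stretch.

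Of 18 further genes of the family, 10 were in the table. The 8 of them that were not tested were nearly silent, and 2 were expressed in all groups and tested: Tmem176a and Tmem176b, distant relatives in 1 shared locus outside the cluster that encode ion channel proteins of dendritic cells and macrophages. Both rose in KO microglia and fell in KO macrophages. Tmem176a held 206, 183 and 225 normalized counts in the WT microglia libraries against 399.7, 379.5 and 381 with the KO. The macrophages held 624, 637 and 675 (WT) and 455, 427 and 389 (KO), with no overlap between WT and KO of either origin. Its log2 fold changes were 0.92 and -0.61 (limma adjusted p = 8.77e-07 and 0.000148), and those of Tmem176b 0.81 and -0.26 (adjusted p = 2.52e-06 and 0.0383). None of the 8 untested genes had more than 6 reads in a library. Among them Ms4a1 had 4 reads, all in KO microglia, and Ms4a4b, a gene of T cells next to Ms4a4c, had 12 reads in WT macrophages and 0 in WT microglia.

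Genes of a partner list, made up of receptors, signalling proteins and enzymes from general knowledge of MS4A proteins, moved in both directions. Whether each of them works with an MS4A protein was not tested. Of 14 listed, 13 were tested. In KO microglia 5 rose and 5 fell, with a median of -0.04, where 21.9% of all tested genes rose and 20.6% fell. In KO macrophages 7 rose and 4 fell, with a median of 0.53, where 16.0% of all tested genes rose and 15.4% fell. Clec7a, which encodes Dectin-1, averaged 61.5 ± 10.7 normalized counts for WT and 278 ± 26.8 for KO microglia, then 419 ± 17.8 for WT and 651 ± 73.2 for KO macrophages. Its log2 rise with the KO was 2.17 in microglia (limma adjusted p = 1.53e-09) and 0.63 in macrophages (adjusted p = 0.00153), and so it had the same order of groups as Ms4a6d. Trem2, the lipid-sensing receptor of microglia, fell in both, from 2719 ± 235 to 399.7 ± 51.3 (-2.77, adjusted p = 2.46e-11) and from 2131 ± 88.2 to 701 ± 108 (-1.61, adjusted p = 5.85e-08). The antibody receptor genes Fcgr4 and Fcgr2b rose in KO microglia by 4.44 (limma adjusted p = 1.15e-12) and 2.15 (adjusted p = 9.51e-12). In KO macrophages they rose by 3.35 (adjusted p = 3.12e-10) and 1.63 (adjusted p = 1.73e-09).

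Other genes were ranked by how closely their log2 values followed each member over the 12 libraries, among 6553 genes whose highest group mean was 100 normalized counts or more. Other Ms4a genes were left out of the ranking, as were predicted, mitochondrial and antigen receptor genes. The 12 points form 4 groups, and in most members WT microglia stand far from the rest, so a high correlation mainly says that a gene is low in those 3 libraries. Closest to Ms4a7 was Cybb, the catalytic subunit of the phagocyte NADPH oxidase (Pearson r = 0.9973), with 37.8 ± 19.4 normalized counts in WT microglia and 4423 ± 356 (KO microglia), 4149 ± 334 (WT macrophages) and 4469 ± 461 (KO macrophages) elsewhere. Antxr2 and Arhgap19 came next. Closest to Ms4a4a were Specc1l (0.9954), Arhgap19 and Plxnc1, and closest to Ms4a14 were Mndal (0.9966), Slit1 and Arhgap19. Mndal, of the interferon-inducible Ifi200 family, was also closest to Ms4a6b (0.9935), ahead of Sorbs3 and Zmynd15. Ms4a6c was followed by the integrin gene Itga4 (0.9903), which averaged 28.6, 1127, 2100.4 and 2034 in WT microglia, KO microglia, WT macrophages and KO macrophages, and then by Ahr and Sorbs3. Ms4a4c had Ncapg2 (0.9846), Ezr and Clec12a, and Ms4a6d had Lrrc8c (0.9288), Pisd-ps2 and Emp3. Among the members themselves the highest correlation was that of Ms4a7 with Ms4a14 (0.998), and those of Ms4a6d with the other 6 were the lowest, at 0.588 to 0.738.

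Most markers of microglia and of border-associated macrophages changed in both KO comparisons. Of the 7 members, 6 were called in KO microglia and 2 in KO macrophages, against 42.5% and 31.4% of all tested genes. All 8 microglia markers fell in KO microglia and 7 of 8 in KO macrophages, and their summed normalized count was 57234 to 75089 for WT and 5281 to 5813 for KO microglia, then 19216 to 20182 for WT and 5881 to 6742 for KO macrophages. Sall1, a transcription factor made by microglia and not by other macrophages, averaged 6360.3, 338, 7.31 and 11.5 in the same order. All 10 markers of border-associated macrophages, to which Ms4a7 is usually added, rose in both KO comparisons. In the same order of groups their sum ran from 2938 to 3544, from 35532 to 40060, from 12968 to 15385 and from 33066 to 38366. In bulk samples a change in the share of such cells and a change of RNA per cell cannot be told apart, and the part of these markers in the changes of the Ms4a genes was not tested. Of the monocyte markers only Ccr2 was tested. It rose by 2.005 in KO microglia (limma adjusted p = 2.61e-05). Ly6c2 had 0 reads in 3 groups, but the sort left out cells with Ly6C, so its low reads say little about monocytes. The sum of the monocyte list was at most 46.4, 147, 209 and 340.4 in that order.

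Most markers of lymphocytes and granulocytes were low. Of the B cell markers 5 were summed, to 79.9 to 101 for WT and 732 to 836 for KO microglia, then to 88.9 to 123 for WT and 466 to 613 for KO macrophages, and most of the sum in the KO groups was Cd22, at 710.1 ± 59.4 in KO microglia. Cd79a, a signalling chain of the B cell receptor, had at most 1.61 normalized counts in any library, and Pax5, a transcription factor of B cells, at most 9.60. T and NK cell markers summed to at most 14.4, mast cell and basophil markers to at most 5.08 and neutrophil markers to at most 24.6. Dendritic cell markers summed to 27.3 to 29.0 for WT and 116.6 to 151 for KO microglia. In macrophages the sums were 42.8 to 56.8 for WT and 91.2 to 120.4 for KO. Of the 4 tested dendritic cell markers 3 rose in KO microglia, where 21.9% of all tested genes rose.

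Close relatives and overlapping genes limit how well some members can be separated. Of all 50-base windows in the exons of Ms4a6c, 51.4% also occur in another gene, mostly BE692007 on the opposite strand, and 5.85% occur in another Ms4a gene. BE692007 itself averaged 13.6 normalized counts over the 12 libraries. For Ms4a4c the share in another Ms4a gene was 8.19%, all of it with Ms4a4b or Ms4a4d, for Ms4a6b 3.44% and for Ms4a6d 2.31%. It was 0 for Ms4a7, Ms4a14 and Ms4a4a, the genes with the largest changes. Whether reads were counted by strand is not given in the sources used here. Ms4a6c and BE692007 have separate values, but how far reads of either were counted for the other is not known.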

How the data were processed

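RNA was sequenced from 12 libraries, 3 in each of 4 groups, using a strand-preserving total RNA kit for picogram inputs, per the labels' protocols. The authors deposited 1 table of log2 values per gene and library. The tools named are STAR, CASAVA and bcl2fastq with build GRCm38, per the submitters' processing notes. The sources used here give no versions, read counter, annotation, strand setting or normalization. When the deposited log2 values were raised to linear scale and reduced by 1, 100% of the 310848 values were whole multiples of a step particular to the library, to within 0.01 reads, so the unit is log2(count divided by a size factor + 1), with 2615404 to 6364994 reads in genes per library. Values called normalized counts are these back-transformed values, and reads are the whole multiples.

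Gene names and positions came from GENCODE mouse release M21 and promoters from RefSeq. Groups were compared with limma 3.58.1 in R 4.3.3 (lmFit, eBayes with a mean-variance trend) with 1 mean per group, Benjamini-Hochberg adjustment over the 12519 genes that reached a normalized count of 10 in 3 or more libraries, and a threshold of 0.05. The model was tested on simulated data. A gene with 0 reads in a group was given a floor of 3 reads over the group. Alternatives were another pseudocount, filter, scaling, variance model, set of groups and length, 2 covariates, and leaving out each library. Coding sequences were aligned globally with Biopython 1.88. The named genes were the members, the tested genes of the other family list, the 4 partners with the largest called change, the 6 nearest tested neighbours and the 3 genes most correlated with each member. The members and lists were chosen with earlier results of these data known. A further B cell marker is not reported here. Intervals and floors cover counting error only, because the reads carry no molecular identifiers and can repeat a molecule.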

Additional observations from a re-analysis of the deposited data

Results flagged for a closer look

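For 6 members the effect of the KO differed between macrophages and microglia by the interaction term of limma. The log2 effect in macrophages minus that in microglia was -8.92 for Ms4a14, -8.71 for Ms4a7, -8.44 for Ms4a4a, -3.02 for Ms4a6c, -2.79 for Ms4a4c and -2.08 for Ms4a6b. The values of Ms4a4a, Ms4a7, Ms4a14 and Ms4a4c rest on 0 to 9 reads per WT microglia library and depend on the pseudocount. For Ms4a6d the difference was 0.34 (adjusted p = 0.243). WT macrophages already held all 7 genes at higher levels than WT microglia. Groups of 3 libraries are too small for a test of single outlying libraries, and none was made.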

How the results depend on the processing

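Each test of a member was repeated under 23 other settings, except that the difference between KO effects cannot be fitted with only 2 groups. Of the resulting 959 values, 925 kept their direction and their side of the threshold. The 6 rises in KO microglia and the 7 higher genes in WT macrophages were called under every setting. The 6 differences between KO effects were called under every setting in which they were fitted. All of these calls also held when each library was left out. In KO against WT macrophages 2 members were called, and 31.4% of all tested genes. Leaving out 1 library gave 1 to 3 members and 24% to 33% of genes. In KO microglia against WT macrophages 3 members and 35.1% of genes were called, and leaving out 1 library gave 2 to 5 and 27.9% to 42.6%. A pseudocount of 8, scaling by library total and limma voom on the reads each called 5 members, with 36.5%, 36.2% and 38% of genes. With only the 2 groups compared, 6 members and 43.3% of genes were called. Ms4a7 in KO against WT macrophages passed with a pseudocount of 8 (adjusted p = 0.0352), with voom (0.000867) and without WT microglia replicate 2 (0.00247). All values that changed direction were near 0: Ms4a6b in KO against WT macrophages (0.01 as reported) was -0.064 with scaling by library total, -0.057 with the title number as a covariate, -0.016 with Ddx3y as a covariate and -0.059 to 0.075 when 1 library was left out, and Ms4a7 in KO macrophages against KO microglia was 0.072 with Ddx3y. The cause was not tested. No paired analysis was possible because the labels give no replicate numbers. Depth limits Ms4a7, Ms4a14, Ms4a4a and Ms4a4c in WT microglia, at 0 to 9 reads per library.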

Other observations

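Gm8369, which lies between Ms4a6c and Ms4a6b and bears no Ms4a name, shares 90.2% of 369 aligned coding bases with Ms4a4c and 89.7% with Ms4a4b. It held 7.93, 6.44 and 1.03 normalized counts in the WT microglia libraries against 55.0, 26.5 and 33.0 with the KO, and the macrophages held 89.2, 100.4 and 77.4 (WT) and 40.02, 47.1 and 61.0 (KO). All 3 KO microglia libraries were above all 3 WT microglia libraries, and the KO macrophages lay below the WT macrophages, although that change did not pass (log2 -0.85, limma adjusted p = 0.165). The levels of Ms4a4c were of similar size in WT microglia, KO microglia and WT macrophages, with means of 6.35, 45.4 and 89.996, and its mean in KO macrophages was 84.1 against 49.4 for Gm8369. Gm8369 was named after its values were seen and its difference from Ms4a4c was not tested.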
